A study of Mus musculus with 28 samples.

Results

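Genes of the blood vessel lining were followed in the mouse pituitary: Aplnr, Apln, Pecam1, Cdh5, Kdr, Flt1, Plvap, Esm1, Tek and Emcn, which are 10 of the 32594 genes in the count table. Aplnr was chosen by a measured value, its lower count after paradoxical sleep deprivation (PSD), so its level in PSD mice against control mice is given here as a description with no test. The other 9 were chosen by name as endothelial markers. All 10 passed the filter on low counts, as did 18936 genes in total when all mice were fitted together.

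Whole pituitary RNA came from 28 C57BL/6J mice that were 8 weeks old on arrival, 16 females and 12 males, with 1 library per mouse. All mice, controls included, had short daily sessions of habituation to the PSD tank on the preceding days. Home cage controls (4 females, 4 males) then had neither PSD nor restraint. Restraint mice (4 females, 2 males) spent 20 min in a restrainer and were killed 10 min later, and PSD mice (4 females, 3 males) were killed 18 h after the end of 12 h of PSD. PSD + restraint mice (4 females, 3 males) had both in that order. In PSD, mice on platforms above water are woken by contact with it when muscle tone is lost at the onset of paradoxical (REM) sleep. Mice were housed 4 to a cage by sex and cage mates went through PSD together, so that an effect of cage or tank cannot be told apart from an effect of PSD within a sex.

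Total counts per mouse lay between 14024465 and 52948531, and 3 of the 4 female PSD mice were among the shallower libraries, their group having a median of 19130092 counts. Values are CPM, the counts scaled to library size and composition. Male control mouse 1 stood apart in neurointermediate lobe transcripts, with a summed level of 384 CPM over 9 marker genes against up to 1816 CPM in its group. Results that rest on this mouse are given with and without it.

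Endothelial cells line the capillaries of the pituitary, which are fenestrated and carry hypothalamic releasing hormones into the anterior lobe and pituitary hormones out of it. Apelin (Apln) is a secreted peptide that acts on the G protein-coupled apelin receptor (Aplnr), a pair known for its part in vessel growth and vascular tone. Vascular endothelial growth factor acts through the receptors Kdr (VEGFR2) and Flt1 (VEGFR1), and angiopoietins act through Tek (TIE2). Pecam1 and Cdh5 (VE-cadherin) hold endothelial cells together, Plvap forms the diaphragms of fenestrae, Emcn (endomucin) is a sialomucin of capillaries and veins, and Esm1 (endocan) is a secreted proteoglycan of activated and sprouting endothelium.

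The genes were all detected in every mouse. Per kilobase of exon, the control level of Plvap was 44.0 ± 4.35 CPM (SD, n = 8), that of Esm1 28.2 ± 9.51 CPM and that of Apln 5.98 ± 0.884 CPM. Emcn followed with 4.52 CPM per kilobase, Kdr with 4.23, Cdh5 with 3.19, Aplnr with 3.07, Pecam1 with 3.02 and Tek with 2.93, and Flt1 was lowest with 0.632 ± 0.0824 (SD, n = 8). The lowest control value of Plvap (37.6) lay above the highest of Esm1 (37.0), and Flt1 lay below every other gene. Emcn and Kdr overlapped with each other, with Apln and with Aplnr, Pecam1 and Tek. Cdh5, Aplnr, Pecam1 and Tek overlapped with each other as well, and Cdh5 also with Emcn. Esm1 reached down to the range of Apln only through male control mouse 1. Of the defining endothelial markers, Pecam1, Cdh5 and Tie1 were well counted, while Cldn5, a tight junction gene, had 1.28 ± 0.319 CPM (SD, n = 4) in control females and 1.71 ± 0.700 CPM (SD, n = 4) in control males.

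Aplnr was lower in PSD mice than in controls of the same sex. The female controls had 5.54, 14.1, 8.69 and 12.7 CPM and the female PSD mice 5.66, 4.80, 4.48 and 6.92 CPM. The male controls had 10.7, 10.5, 14.2 and 14.3 CPM and the male PSD mice 7.44, 6.37 and 6.03 CPM. In males the groups did not overlap, whereas in females control mouse 1 lay within the PSD range. The log2 fold change was -0.90 (SE, the standard error of the fit, 0.18) over all mice, -0.88 in females and -0.90 in males, values that the choice of the gene has used. In whole gland RNA, fewer cells of a type and less RNA per cell cannot be told apart for a single gene. Over all mice, 30 other endothelial genes had a median log2 fold change of -0.05 after PSD. The sexes differed in this, since the mean log2 CPM of the 30 genes differed by -0.22 between PSD and control males. Between PSD and control females it differed by 0.12. The part of endothelial content in the lower Aplnr after PSD alone was not tested.

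**Figure D1:**
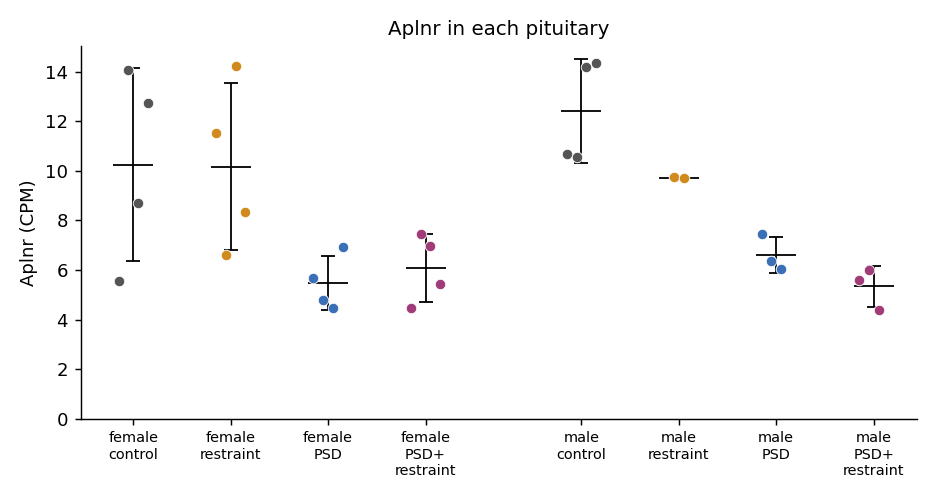
Aplnr in CPM for each of 28 pituitaries by sex and treatment; points are mice, horizontal bars group means and vertical bars 1 SD. Group means were 5.34 to 6.61 CPM with PSD and 9.72 to 12.4 CPM without it, and female control mouse 1 (5.54 CPM) and female restraint mouse 2 (6.61 CPM) lay among the PSD mice.

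Among restrained mice the question was whether prior PSD went with a lower Aplnr count as well. The choice of Aplnr named its level after PSD and not the restrained mice, whose values may have been known when it was made, so these tests are not certain to be independent of it. Female restraint mice had 11.5, 6.61, 14.2 and 8.34 CPM and female PSD + restraint mice 4.47, 7.44, 6.98 and 5.45 CPM. Male restraint mice had 9.74 and 9.70 CPM and male PSD + restraint mice 5.59, 6.01 and 4.40 CPM. All 3 male PSD + restraint mice lay below both restraint mice, and 2 of 4 females lay below every restraint female. The log2 fold change was -0.78 (SE 0.19). In edgeR's quasi-likelihood test its unadjusted p was 0.000297 and its p after Benjamini-Hochberg adjustment over all genes 0.125, so that Aplnr was not called. Calls needed an adjusted p up to 0.05 and a log2 fold change of 0.322 or more in either direction. The call depended on the test and on 1 mouse. DESeq2's Wald test gave -0.79 with an adjusted p of 0.0155, and without female restraint mouse 2 the edgeR value was -0.88 with an adjusted p of 0.0350. In this comparison 0.0951% of all genes tested were called by edgeR (18 genes, all higher), and 0 of the 10 genes. DESeq2 called 1 of the 10 and 65 of all 18936 genes, and an unadjusted edgeR p under 0.05 was reached by 3 of the 10 and by 2560 of all genes.

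As a single value, log2 CPM of Aplnr was 0.77 lower in PSD + restraint than in restraint mice (difference -0.77, two-sided exact permutation test within sex, p = 0.00571, smallest possible 0.00143), a test chosen after seeing the data. The same test gave -0.70 in females (exact p = 0.0857) and -0.87 in males, where exact p = 0.100 is the smallest that 3 against 2 mice can give. Within each sex, edgeR's fold change was -0.72 with an SE of 0.28 (adjusted p = 0.282) for females, and -0.85 with an SE of 0.17 (adjusted p = 0.205) for males. With the neurointermediate lobe score (defined with Esm1) as a term, the female value was -0.30 with an adjusted p of 0.926, and the value over all mice -0.75. With DESeq2 the male value was -0.84 with an adjusted p of 0.00533. The difference of this response between the sexes was 0.14 (SE 0.39, edgeR adjusted p = 0.936).

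Aplnr was then set against the amount of endothelial transcript in the same gland. Here too, tests of Aplnr in the restrained mice are not certain to be independent of its choice, however small their p. The endothelial score is the mean log2 CPM of 30 other endothelial genes, such as Tie1, Eng and Robo4. In PSD + restraint against restraint mice the score differed by 0.0122 on the log2 scale (two-sided exact permutation test within sex, p = 0.891), while Aplnr less the score differed by -0.78 (p = 0.00143 by the same exact test, the smallest it can give). Aplnr less the score averaged 0.884 ± 0.384 (SD, n = 4) in restraint females and 0.129 ± 0.213 (SD, n = 4) in PSD + restraint females, groups that did not overlap. In males the means were 0.966 ± 0.0349 (SD, n = 2) and 0.149 ± 0.146 (SD, n = 3), again without overlap. The difference was -0.76 in females (exact p = 0.0286, the smallest possible) and -0.82 in males (exact p = 0.100, the smallest possible). With the score as a term in edgeR, the fold change of Aplnr was -0.79 and its adjusted p 0.0594.

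Without restraint, the endothelial score was 0.22 lower in PSD than in control males (difference -0.22, two-sided exact permutation test, p = 0.0286, the smallest possible) and 0.12 higher in PSD than in control females (exact p = 0.257). Aplnr less the score was lower by 0.96 in PSD females and by 0.68 in PSD males, the differences being -0.96 and -0.68 on the log2 scale. The sum of 4 red blood cell genes was 1778 to 3225 CPM in control males and 466 to 1743 CPM in PSD males, and none of these 4 genes was called. Their part in the lower Aplnr was not tested. The neurointermediate lobe markers were at 1257 to 1914 CPM in control females and at 1801 to 4346 CPM in PSD females. With their score as a term, the difference of Aplnr between PSD and control females was -0.49 and that over all mice -0.87, while in males it was -0.97. Within groups Aplnr had a Pearson r with that score of -0.58 in the 16 females and of 0.50 in the 12 males. Without male control mouse 1, r was 0.41 in males. The part of lobe content in the lower Aplnr of females was not tested beyond this. The r of Aplnr with the log2 total count was 0.14 over 28 mice.

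No change of Aplnr passed the test after restraint alone. The log2 fold change was -0.15 (SE 0.18, edgeR adjusted p = 0.884), with a value of -0.35 (SE 0.16, adjusted p = 0.977) in males, where both restraint mice lay below the 4 controls. PSD + restraint mice, compared with the same controls as PSD mice, had a log2 fold change of -0.93 (SE 0.18, edgeR adjusted p = 0.000989). In males the value was -1.20 with an SE of 0.15 (adjusted p = 0.00127), and in females it was -0.71 with an SE of 0.28 (adjusted p = 0.170). With the neurointermediate lobe score as a term, the female value was -0.20 (adjusted p = 0.878), the male value -1.32 (adjusted p = 0.000839) and that over all mice -0.88 (adjusted p = 0.00708). These controls were used in choosing Aplnr, so the values do not stand apart from that choice. The PSD by restraint interaction of Aplnr was 0.12 (SE 0.26, adjusted p = 0.9999), and the sexes differed by -0.09 (SE 0.13, adjusted p = 0.623), female less male.

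**Figure D2:**
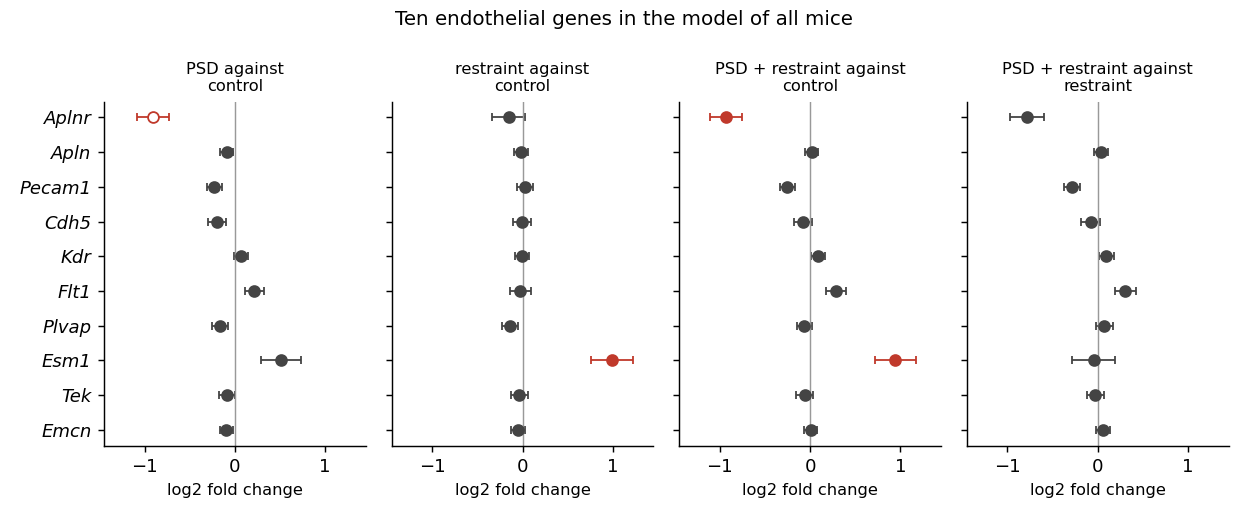
Log2 fold changes of the 10 genes in the model of all 28 mice, 1 panel per comparison. Points are edgeR estimates, bars 1 standard error, and filled red points passed the call rule. The open point is the value that chose Aplnr, and its colour is not a test result. Aplnr in the panel of PSD + restraint against control is set against the controls used in choosing it. Aplnr lies at -0.90, -0.15, -0.93 and -0.78 from left to right, and Esm1 at 0.51, 0.99, 0.94 and -0.05.

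Among the other 9 genes, none was called after PSD alone, where 0.671% of all genes were called, 3328 of 18936 had an unadjusted p under 0.05 and Pecam1 and Esm1 did so among the 9. DESeq2 also called 0 of the 9. After restraint, 1 of 10 was called, Esm1, against 1.14% of all genes. After PSD + restraint, 1 of the other 9 was called, Esm1, which was higher, against 5.46% of all genes. Aplnr was called there too, against the controls used in choosing it, and is left out of that count. PSD + restraint mice were also compared with PSD mice, a contrast added after seeing the data, and 0 of 10 genes were called there against 2.01% of all genes. The interaction of PSD and restraint called 0.0% of all genes (743 with an unadjusted p under 0.05) and none of the 10.

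The apelin gene Apln, the ligand of the receptor, showed no such difference that passed the test. In females it had 16.3, 17.2, 16.4 and 17.0 CPM in controls and 15.4, 19.7, 16.7 and 14.95 CPM in PSD mice. Its log2 fold changes were -0.09 (SE 0.07, edgeR adjusted p = 0.530) after PSD, -0.01 after restraint and 0.02 (SE 0.07, adjusted p = 0.904) after PSD + restraint. In restrained mice the value was 0.03 (SE 0.08, adjusted p = 0.876). No treated group lay wholly on one side of its controls. In males this rested on control mouse 1, at 17.5 CPM, since the 3 PSD males at 18.1, 19.3 and 17.3 CPM lay below the other controls, whose lowest value was 21.4 CPM. In PSD males Apln had a log2 fold change of -0.19 (edgeR adjusted p = 0.698), or -0.27 (adjusted p = 0.447) without that mouse.

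The VEGF receptors had values on opposite sides of those of Pecam1, and none passed the call rule. Flt1 had a log2 fold change of 0.28 (SE 0.11, edgeR adjusted p = 0.0944) after PSD + restraint and of 0.31 (SE 0.12, adjusted p = 0.267) in PSD + restraint against restraint mice. The 4 PSD + restraint females had 10.96, 13.7, 13.3 and 10.4 CPM of Flt1, all above the control females at 10.2, 7.69, 10.2 and 7.93 CPM. The male PSD + restraint mice had 7.75, 11.3 and 6.63 CPM of Flt1 and the male controls 8.32, 8.04, 8.59 and 7.28 CPM, which overlap. Without male PSD + restraint mouse 3, the smallest of these, the Flt1 value against controls was 0.35 with an adjusted p of 0.0276 and passed the rule. Kdr had log2 fold changes of 0.06, -0.01, 0.09 and 0.09 after PSD, restraint, PSD + restraint and in the restrained mice, with edgeR adjusted p of 0.522 or more.

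Of the junction genes, Pecam1 had a log2 fold change of -0.23 (SE 0.08, edgeR adjusted p = 0.157) after PSD and -0.25 (SE 0.08, adjusted p = 0.0448) after PSD + restraint, the second past the p threshold and under the fold threshold. Among restrained mice it was -0.28 (SE 0.09, adjusted p = 0.199). The male PSD + restraint mice had 14.7, 17.6 and 14.6 CPM of Pecam1, all below the male restraint mice at 20.9 and 18.0 CPM and the male controls at 19.1 to 22.8 CPM. In females the PSD + restraint mice had 13.0, 15.8, 17.7 and 14.8 CPM of Pecam1, and 3 of 4 lay below the restraint females at 16.1 to 21.1 CPM. DESeq2 called Pecam1 in PSD + restraint males, at -0.42 with an adjusted p of 0.0270. Cdh5 had log2 fold changes of -0.20 (edgeR adjusted p = 0.294) after PSD and -0.08 (adjusted p = 0.658) after PSD + restraint.

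Tek, Plvap and Emcn were not called in any comparison. Plvap had -0.16 (SE 0.09, edgeR adjusted p = 0.312) after PSD and -0.06 (adjusted p = 0.701) after PSD + restraint. Tek had -0.09 and -0.06 for the same comparisons, and Emcn -0.10 and 0.01. Emcn in males ran from 26.4 to 30.4 CPM in controls and from 22.9 to 24.3 CPM in PSD + restraint mice, with a log2 fold change of -0.24 (SE 0.07, adjusted p = 0.101). In females the same comparison gave Emcn 0.22 (SE 0.09, adjusted p = 0.198), and the difference between the sexes was 0.45 (SE 0.12, adjusted p = 0.556).

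Within each sex, the 1 call by edgeR among the 10 genes was that of Aplnr in PSD + restraint against control males. Those controls were used in choosing Aplnr. In both sexes the counts after PSD at an unadjusted p under 0.05 include Aplnr, by the value that chose it. The counts after PSD + restraint include it as well, against those same controls, so neither is a test of Aplnr. For females, 0.0277% of all genes were called after PSD, 0.543% after restraint, 2.2% after PSD + restraint and 0.0332% in PSD + restraint against restraint mice, and 0 of the 10 in each, with 2, 1, 5 and 3 of the 10 at an unadjusted p under 0.05. Of all 18059 genes tested in females, 3567, 1765, 3649 and 2555 were under that p. For males the shares were 0.00547%, 0.296%, 2.56% and 0.00547%, with 0, 0, 1 and 0 of the 10 called and 5, 2, 6 and 2 at an unadjusted p under 0.05. Of all 18271 genes tested in males, 1617, 927, 3181 and 1925 were under that p. The female less male difference of these responses called 0.0% of all genes for each of the 4 comparisons (2038, 804, 1363 and 2154 genes at an unadjusted p under 0.05) and none of the 10. DESeq2 called 24, 0, 10 and 175 genes for those differences.

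Esm1, the endocan gene, rose with restraint. Control females had 77.6, 75.8, 65.9 and 67.8 CPM and restraint females 133, 162, 102 and 143 CPM. Control males had 14.4, 58.9, 52.6 and 59.7 CPM and restraint males 88.5 and 113 CPM. Every restraint mouse lay above every control of its sex, and male control mouse 1 lay far below the other controls. The log2 fold change was 0.99 (SE 0.23, edgeR adjusted p = 0.0231), and 0.86 with an adjusted p of 0.0113 without male control mouse 1. The call was lost without female restraint mouse 2 (0.95, adjusted p = 0.0613) or male restraint mouse 3 (0.92, adjusted p = 0.0618).

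PSD + restraint females had 199, 123, 102 and 91.4 CPM of Esm1 and PSD + restraint males 122, 105 and 61.1 CPM, all above the controls of their sex. The log2 fold change against controls was 0.94 (SE 0.23, edgeR adjusted p = 0.00698), and 0.81 with an adjusted p of 0.00439 without male control mouse 1. After PSD alone, females had 93.4, 160, 114 and 70.7 CPM of Esm1 and males 46.5, 56.0 and 74.5 CPM, which overlapped the controls in both sexes. The log2 fold change of 0.51 (SE 0.23, adjusted p = 0.237) was not called, and it was 0.38 without male control mouse 1. Among restrained mice, prior PSD gave -0.05 (SE 0.24, adjusted p = 0.954), restraint in PSD mice gave 0.43 (SE 0.23, adjusted p = 0.435), and the interaction was -0.56 (SE 0.33, adjusted p = 0.9999).

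**Figure D3:**
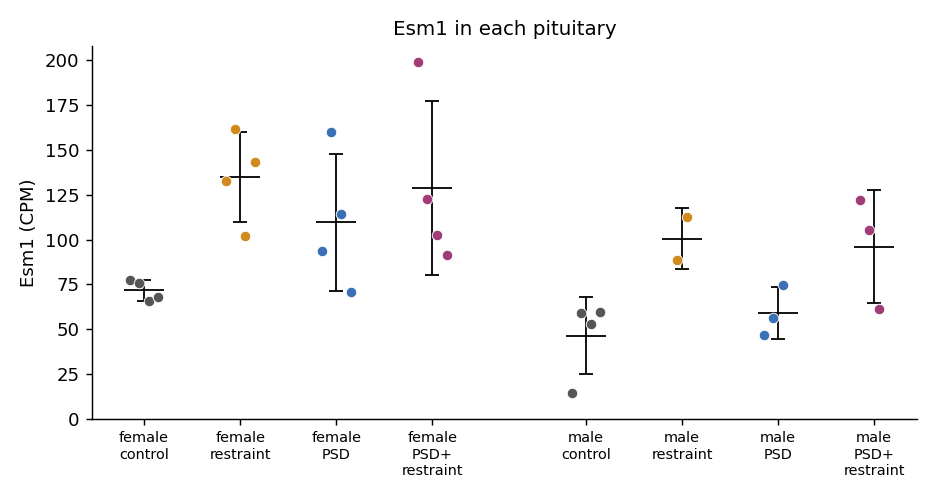
Esm1 in CPM for each of 28 pituitaries by sex and treatment; points are mice, horizontal bars group means and vertical bars 1 SD. All restraint mice lie above the controls of their sex (at most 77.6 CPM in females and 59.7 CPM in males), and the lowest point is male control mouse 1 at 14.4 CPM.

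Esm1 varied with the neurointermediate lobe transcripts of the glands. The neurointermediate lobe score is the mean log2 CPM of 9 genes of melanotropes and of the neural lobe (Pcsk2, Pax7, Oacyl, Rax, Lhx2, Col25a1, Scn7a, Vax1 and Nkx2-1). With group means subtracted, Esm1 correlated with it at a Pearson r of 0.89 and a Spearman rho of 0.83 over 28 mice, 0.79 without the 2 mice farthest from the median score, 0.73 in females and 0.96 in males. Without male control mouse 1 the values were 0.76 over 27 mice and 0.83 in males. Apln did so at 0.72 (rho 0.71, 0.75 without 2 mice), and the other 8 genes between -0.28 and 0.20 over all mice. These are descriptions, since the mice of a group share treatment and the score was 1 of 13 marker lists examined.

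The score itself averaged 4.64 ± 0.206 (SD, n = 4) in control females and 4.74 ± 0.469 in restraint females, 5.11 ± 0.315 in PSD females and 5.23 ± 0.247 in PSD + restraint females. In males it was 3.99 ± 1.49 (SD, n = 4) in controls, or 4.73 ± 0.133 (SD, n = 3) without control mouse 1 at 1.76, and 4.79 ± 0.0248 (n = 2) after restraint, 4.64 ± 0.117 (n = 3) after PSD and 5.08 ± 0.568 (n = 3) after PSD + restraint. The PSD males thus lay above the control mean with that mouse and below it without. All 9 markers had positive fold changes after PSD + restraint, and 3 of them were called (Pcsk2, Oacyl and Vax1), where 5.46% of all genes were called. A response of the markers to treatment cannot be told apart from a difference in lobe content. With the score as a term in edgeR, Esm1 after restraint was 0.80 with an adjusted p of 0.000279. After PSD + restraint it was 0.40 with an adjusted p of 0.0728 and no longer called, and after PSD alone 0.16 with an adjusted p of 0.539.

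**Figure D4:**
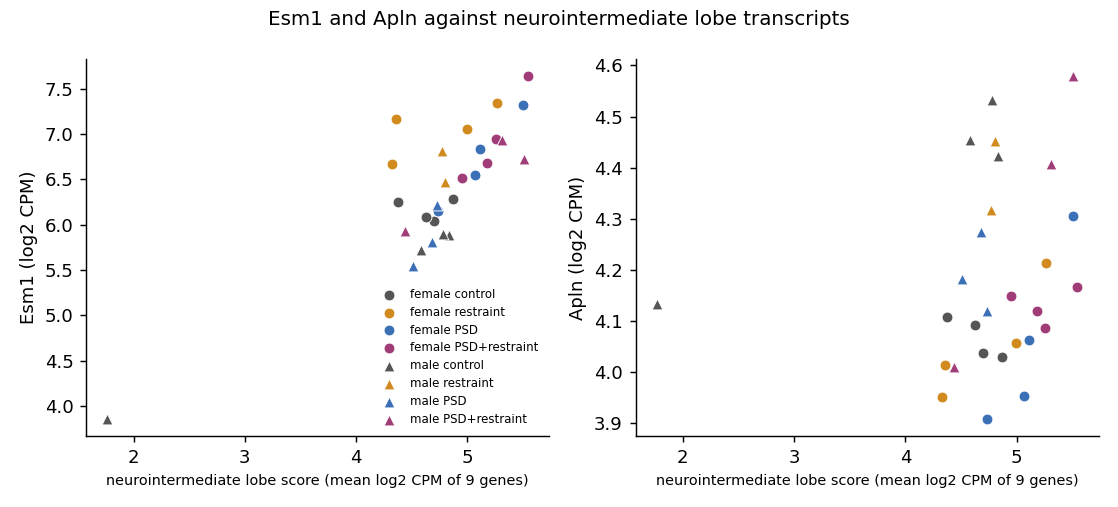
Log2 CPM of Esm1 (left) and Apln (right) against the neurointermediate lobe score of the same gland, for 28 mice; colours mark treatment, circles females and triangles males. Male control mouse 1 is the single point at a score of 1.76. With group means subtracted, Esm1 had an r of 0.89 with the score, or 0.76 without that mouse. Esm1 did not rise along the score in every group, and the 2 restraint males ran the other way.

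The 250 bases before the annotated start of Esm1, Apln and Flt1 are shown because Esm1 and Apln varied together across mice (r 0.70) and because Flt1 had the largest positive values among the receptor genes. Promoter sequences were found in RefSeq for 6 of the 10 genes, and the windows on GRCm38.p6 are chr13:113209409-113209658 on the plus strand for Esm1, chrX:48034854-48035103 on the minus strand for Apln and chr5:147726012-147726261 on the minus strand for Flt1. Each is written 5′ to 3′, and capitals mark matches on either strand to one of the motifs searched.
Esm1: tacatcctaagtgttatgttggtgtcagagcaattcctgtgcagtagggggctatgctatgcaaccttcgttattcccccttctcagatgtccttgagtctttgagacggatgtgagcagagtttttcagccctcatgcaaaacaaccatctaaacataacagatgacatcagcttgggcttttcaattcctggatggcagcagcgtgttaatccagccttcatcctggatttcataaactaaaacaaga
Apln: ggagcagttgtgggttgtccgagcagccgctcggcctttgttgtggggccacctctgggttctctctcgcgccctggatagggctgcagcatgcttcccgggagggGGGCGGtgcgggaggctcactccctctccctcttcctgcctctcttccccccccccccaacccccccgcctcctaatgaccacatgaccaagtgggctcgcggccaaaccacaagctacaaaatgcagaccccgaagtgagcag
Flt1: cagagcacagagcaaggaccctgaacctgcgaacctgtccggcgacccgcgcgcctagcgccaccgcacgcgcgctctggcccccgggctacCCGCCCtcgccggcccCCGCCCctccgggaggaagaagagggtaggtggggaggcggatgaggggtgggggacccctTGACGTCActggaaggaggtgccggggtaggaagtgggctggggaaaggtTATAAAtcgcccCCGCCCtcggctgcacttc
The motifs were searched on both strands and were chosen as general promoter elements or sites of factors known in endothelium or in the stress response. They were the cyclic AMP response element (letters TGACGTCA), the core of the hypoxia response element (letters ACGTG) and a site of ETS factors (letters CCGGAAGT). Sites of SOX factors were read as AACAAT, those of endothelial zinc finger GATA factors as AGATAA, and those of the orphan receptors of the NR4A family as AAAGGTCA. The box named TATA was read as TATAAA, the binding box of SP1 (GC box) as GGGCGG, and the site of AP-1 factors as TGACTCA. No motif holds the letters of another. Flt1 held the cyclic AMP response element, which 1.55% of 32851 promoter windows of this length hold, the TATA box (12.4%) and the GC box (32.7%). Apln held the GC box, and Esm1 none of the 9 motifs. Of the windows not printed, Kdr held the GC box, Emcn and Tek the SOX site (9.42% of windows), and Emcn the NR4A site (1.34%). No window of the 6 held the hypoxia core (16.6%), ETS (2.88%), GATA (9.99%) or AP-1 (4.46%) letters.

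Females and males differed in several of these genes over all treatments. Esm1 was higher in females by 0.60 on the log2 scale (SE 0.17, edgeR adjusted p = 0.00669) and was the 1 gene of 10 called, against 14.9% of all genes. Without male control mouse 1 the difference was 0.52 (adjusted p = 0.00378). Flt1 was higher in females by 0.31 (SE 0.08, adjusted p = 0.00388) and Cdh5 by 0.22 (SE 0.07, adjusted p = 0.0207), both under the fold threshold. Apln had -0.25 (SE 0.05, adjusted p = 0.000510), Emcn -0.24 (adjusted p = 0.000975), Pecam1 -0.16 and Kdr -0.15, female less male, past the p threshold and under the fold threshold as well. Of the 30 other endothelial genes, 3 were called between the sexes, Sox18, Eng and Vwf, all higher in females. Flt1 passed the rule in 7 of the 28 fits that left out 1 mouse.

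Of the 30 other endothelial genes, which served for the score, 2 were called for a treatment, both after PSD + restraint, where 5.46% of all genes were called, a share near that of the list. After PSD 0 of 30 were called, 11 had a positive fold change and their median was -0.05, beside a median of 0.0068 over all genes. After restraint 0 of 30 were called (median -0.03), and in PSD + restraint against restraint mice 0 of 30 (median -0.01). After PSD + restraint, Sox7 was higher by 0.40 (edgeR adjusted p = 0.0407) and Sox18 was lower, at -0.56 (adjusted p = 0.0179), both transcription factors of endothelial differentiation. The female less male difference of the PSD response was positive for 29 of the 30 and for 9 of the 10 genes. The medians were 0.22 and 0.19, beside 0.0131 over all genes, and none of the 18936 genes tested was called. The 10 include Aplnr, whose PSD response chose it. Genes that share libraries and scaling are not separate observations.

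Of 14 further genes of apelin, VEGF and angiopoietin signalling, 12 passed the filter and 0 were called after PSD, restraint or PSD + restraint, or in PSD + restraint against restraint mice. Apela, the second apelin receptor ligand, did not pass the filter. Vegfa, the ligand of Kdr and Flt1, had 57.6 ± 5.71 CPM (SD, n = 4) in control and 71.1 ± 11.3 CPM (SD, n = 4) in PSD + restraint females. Its log2 fold change of 0.31 (SE 0.08, edgeR adjusted p = 0.0177) after PSD + restraint was past the p threshold and under the fold threshold. Angpt2, a ligand of Tek, had -0.33 (SE 0.17, adjusted p = 0.216).

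Of 13 genes of tip cells and Notch signalling, 1 was called higher after PSD and 4 after PSD + restraint, with none lower, where 0.671% and 5.46% of all genes were called. Lama4, a laminin chain of vessel basement membrane, had 0.43 (edgeR adjusted p = 0.00638) after PSD and 0.36 (adjusted p = 0.00302) after PSD + restraint. After PSD + restraint Hey1, a Notch target, had 0.47 (adjusted p = 0.000226), Jag1, a Notch ligand, 0.40 (adjusted p = 0.00470) and Unc5b, a netrin receptor, 0.94 (adjusted p = 0.00643). The median of the list was 0.23 after PSD + restraint beside 0.0013 over all genes. In PSD + restraint against restraint mice 0 of the 13 were called. Hey1 had 0.0075 after PSD alone. In PSD + restraint against PSD mice it was called (0.46, edgeR adjusted p = 0.00101), where 2.01% of all genes were called.

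Of 11 smooth muscle and pericyte genes, 2 were called after PSD, 3 after PSD + restraint and 1 in PSD + restraint against restraint mice, all higher, where 0.671%, 5.46% and 0.0951% of all genes were called. The medians of the list were 0.14, 0.16 and 0.04, with 8, 10 and 7 of 11 values positive, and Des, Cspg4, Pdgfrb and Rgs5 were negative in the last comparison. Acta2, smooth muscle actin, had 4.21 ± 1.09 CPM (SD, n = 4) in control and 8.36 ± 1.84 CPM (SD, n = 4) in PSD + restraint females. Its log2 fold change was 0.61 after PSD (edgeR adjusted p = 0.0480), 0.95 after PSD + restraint (adjusted p = 0.000107) and 0.80 among restrained mice (adjusted p = 0.0371). Tagln had 0.53, 0.87 and 0.59 in these comparisons, the last with an adjusted p of 0.0638. Acta2 and Tagln were named because they were called, and their part in the lower Aplnr was not tested. Of 14 hypoxia response genes, Ddit4 was called after restraint (0.42, adjusted p = 0.000676), where 1.14% of all genes were called. Ankrd37 was called after PSD + restraint (-0.58, adjusted p = 0.00467), where 5.46% of all genes were called. It was also called in PSD + restraint against PSD mice (-0.66, edgeR adjusted p = 0.00430), where 2.01% of all genes were called.

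Within groups the 10 genes varied as more than one set. Esm1 had a within-group SD of 0.527 on the log2 scale and Aplnr one of 0.368, while the other 8 had SDs of 0.117 to 0.222. Over 28 mice with group means subtracted, Kdr correlated with Plvap at a Pearson r of 0.66, with Tek at 0.65 and with Emcn at 0.58, and Pecam1 with Tek at 0.62. Esm1 correlated with Apln at 0.70 (rho 0.63, 0.56 without the 2 mice farthest from the median) and with the others at -0.45 to 0.12. Aplnr was closest to Pecam1 at 0.46, and its r with Apln was 0.02 and with Kdr 0.09. With the endothelial score, r was 0.70 for Cdh5, 0.66 for Flt1, 0.48 for Aplnr and -0.04 for Esm1. The genes share libraries and scaling, and no test was made.

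**Figure D5:**
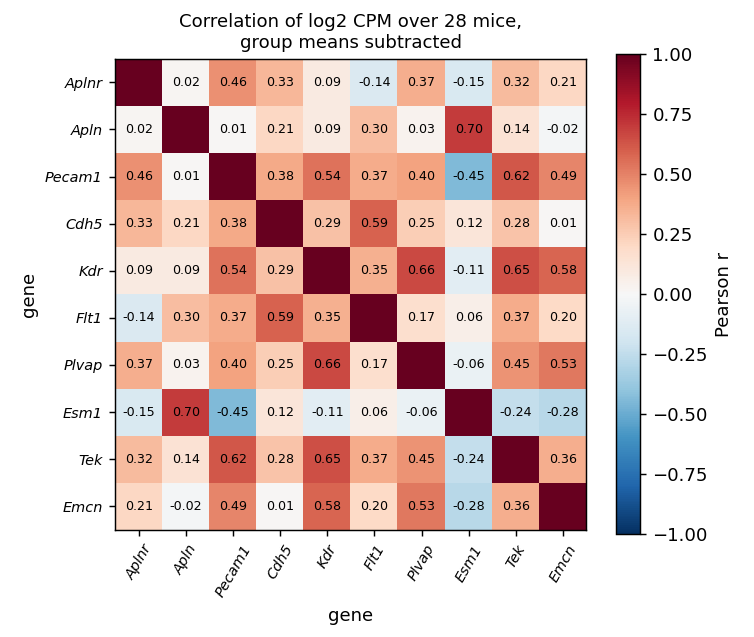
Pearson correlation of log2 CPM between the 10 genes over 28 mice after subtracting each group's mean; red is positive, blue negative, and each cell prints r. Kdr, Plvap, Tek, Emcn and Pecam1 share positive values, Esm1 stands with Apln (0.70), and the highest value of Aplnr is 0.46, with Pecam1.

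By the same measure the genes most like Aplnr among 18935 others were Bcl6b (r 0.80, rho 0.79, 0.76 without 2 mice), Idh2 (r 0.76), Cdk2ap1 (r 0.74), Bscl2 (r 0.74) and Kcnn1 (r 0.72). Without the same 2 mice, r fell to 0.60 for Idh2, 0.58 for Cdk2ap1 and 0.64 for Bscl2, and was 0.74 for Kcnn1. Bcl6b encodes a transcriptional repressor, Idh2 the mitochondrial isocitrate dehydrogenase, Bscl2 the lipid droplet protein seipin and Kcnn1 a calcium-activated potassium channel. Pecam1 stood at rank 824 in that order, Plvap at 1750 and Cdh5 at 2234.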

How the data were processed

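Whole pituitary RNA was sequenced with a stranded mRNA library kit. Alignment by the authors used MapSplice and the mm10 genome, HTSeq 0.9.1 assigned reads to UCSC gene models, and the deposited table holds raw counts, 1 column per mouse. The deposited table of normalized counts was not used here. Counts per gene mix all cell types of the gland and carry the choice of gene models with them, and columns of the count table that were not used number 0. A mouse's Aplnr count lay between 60 and 597, which gives a counting (Poisson) error of 12.9% to 4.09%, or 0.19 to 0.06 on the log2 scale. The within-group SD of Aplnr was 0.368 on the same scale, and at 280 counts the counting error was 0.09.

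Mice were grouped by sex, PSD and restraint from the sample labels. Separate numbers stand for separate animals, and p-values measure the spread between them. In R 4.3.3, edgeR 4.0.16 fitted quasi-likelihood models with TMM factors to genes kept by filterByExpr, with sex, PSD, restraint and their interaction as terms (all mice) or the last 3 (each sex). A model with 1 mean per group gave differences of response between the sexes. Adjusted p-values are Benjamini-Hochberg over all genes tested. Log2 CPM used a prior count of 2. Single values were compared with two-sided exact permutation tests. Lengths and positions come from GENCODE M21 (GRCm38). In simulated data with 195 genes changed by 1 log2 unit, the fit of all mice recovered 164 for PSD + restraint against restraint and called 8 unchanged genes. In the real data that comparison called 18 genes and Aplnr had -0.78, so the simulated recovery may not carry over to it. Alternatives were DESeq2 1.42.0, other filters and size factors, edgeR's robust option, a replicate block, only the groups compared, an endothelial or neurointermediate lobe score as a term, and each mouse left out in turn. The text names the 10 genes, called genes of the marker lists or their most abundant members, and the 5 genes most correlated with Aplnr. Angpt2, Cspg4, Des, Pdgfrb, Rgs5, Apela, Cldn5, Robo4 and Tie1 were named outside this rule, after their values were seen. The genes and lists were chosen with earlier results of these data known.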

Additional observations from a re-analysis of the deposited data

Results flagged for a closer look

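Of 55 groups of 4 mice tested for a mouse far from the others, 1 was flagged, where chance flags about 1 group in 20. Esm1 in male control mouse 1 was 14.4 CPM while the other 3 male controls had 52.6 to 59.7 CPM, a gap of 0.844 of the group's range against a critical value of 0.829. The same gland had the lowest neurointermediate lobe score of all mice (1.76).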

How the results depend on the processing

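For Aplnr in PSD + restraint against restraint mice, DESeq2 (-0.79) and leaving out female restraint mouse 2 (-0.88) passed the rule, and leaving out single mice gave -0.88 to -0.65. In males DESeq2 gave -0.84. Aplnr after PSD in females was -0.49 with the neurointermediate lobe score as a term. The number of the 10 genes called after restraint was 0 to 1 when single mice were left out, after PSD + restraint 1 with the lobe score in place of 2 (Aplnr included), in PSD + restraint against restraint mice 1 under DESeq2 and 0 to 1 when mice were left out, and between the sexes 1 to 2 when mice were left out. In females after restraint 1 was called with the lobe score or only the groups compared, and after PSD + restraint 1 with DESeq2, the endothelial score or only the groups compared. In males DESeq2 called 2 after PSD + restraint and 1 in PSD + restraint against restraint mice, with Aplnr included in both. Esm1 in PSD + restraint against restraint mice, near 0 at -0.05, turned positive in 5 alternatives, with a replicate block (0.0234) and without single mice (range -0.17 to 0.0362). The causes were not tested. Of 133 other values with an unadjusted p of 0.05 or more, 63 changed sign in at least 1 alternative and 0 were called in any.

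Replicate numbers did not pair the mice (r of -0.35 to 0.33 over 39 same-number pairs, median -0.03). With a replicate block, Aplnr was -0.81 in PSD + restraint against restraint mice (adjusted p = 0.195), 171 genes were called after restraint in place of 216, and the number of the 10 genes called did not change in the comparisons of treatments. With 2 restraint males, tests in males rest on few mice.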
